A study of Mus musculus with 11 samples.

Results

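Presynaptic vesicle release genes encode the proteins that dock, prime and fuse synaptic vesicles at the nerve terminal and then take the vesicle membrane back. The 32 genes described here were given as a list of symbols, and all 32 were found among the 53700 Ensembl gene identifiers of the count tables. All 32 had enough reads to be among the 17626 genes tested, so no member was lost to the filter on low counts. They were grouped by role into the SNARE core (4 genes), SNARE regulators and recycling (4), synaptotagmins (5), synapsins (3), vesicle membrane proteins (5), Rab3 and active zone (7), endocytosis (3) and synuclein (1).

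Counts came from QuantSeq, a method that reads the 3′ end of polyadenylated transcripts, in the cerebral cortex of 11 mice, all female, 8 months old and carrying 5xFAD. Of these, 6 carried both copies of Abi3 (Abi3+/+) and 5 carried none (Abi3-/-). Abi3 encodes a member of the WAVE complex, which controls actin branching, and in brain it is known mainly from microglia. The comparison asks whether loss of Abi3 was accompanied by a different level of the release machinery in cortex with amyloid.

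Every animal in both groups carried the 5xFAD transgenes, human genes with familial Alzheimer's disease mutations under the neuronal Thy1 promoter, so there was no group without amyloid. The labels give the strain as C57BL/6. By the study's methods the 5xFAD line came on a B6SJL background and the null allele, which removed Abi3 in all cells, on C57BL/6N. The tissue was cortex of 1 hemisphere from perfused mice.

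At a terminal, the vesicle SNARE synaptobrevin pairs with syntaxin and SNAP-25 on the plasma membrane, and the zipped complex pulls the membranes together. Synaptotagmins sense calcium, complexins hold the complex ready, and NSF with its SNAP adaptors takes it apart for reuse. Synapsins tether the reserve vesicles, active zone scaffolds place vesicles beside calcium channels, and dynamin, amphiphysin and synaptojanin recover the membrane. Loss of synaptic proteins is a known feature of Alzheimer's disease and of amyloid mouse models.

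The stretches just upstream of Stx1a, Nsf and Syp are shown because these genes were among the 5 members with the smallest unadjusted p. The other genes of those 5, Napb and Sv2b, have another annotated gene within the same 250 bases and are named only. Each stretch is the 250 bases before the outermost annotated start in GRCm39, read 5′ to 3′ on the strand of the gene, at chr5:135051889-135052138 (plus strand), chr11:103844937-103845186 (minus strand) and chrX:7504460-7504709 (plus strand). Capitals mark a match to a motif searched on both strands: the GC box GGGCGG, the cyclic AMP response element TGACGTCA, the E-box CACGTG, or the left part of the RE1 repressor element, TTCAGCACC.
Stx1a: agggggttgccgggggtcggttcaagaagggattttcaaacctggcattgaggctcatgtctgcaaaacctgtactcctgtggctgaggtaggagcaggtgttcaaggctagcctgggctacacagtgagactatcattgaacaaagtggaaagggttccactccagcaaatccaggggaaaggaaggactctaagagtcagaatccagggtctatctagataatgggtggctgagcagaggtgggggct
Nsf: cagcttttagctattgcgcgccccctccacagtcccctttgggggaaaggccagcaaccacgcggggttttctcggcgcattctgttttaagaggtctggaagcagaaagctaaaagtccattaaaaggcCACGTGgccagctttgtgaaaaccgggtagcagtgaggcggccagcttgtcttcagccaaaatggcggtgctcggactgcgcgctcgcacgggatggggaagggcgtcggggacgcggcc
Syp: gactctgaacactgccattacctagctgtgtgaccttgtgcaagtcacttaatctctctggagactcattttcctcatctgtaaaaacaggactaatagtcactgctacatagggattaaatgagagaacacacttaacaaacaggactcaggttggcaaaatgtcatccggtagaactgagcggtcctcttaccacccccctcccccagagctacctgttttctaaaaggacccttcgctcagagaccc
The Nsf stretch held 1 E-box, and the Stx1a and Syp stretches held no match. Across the 32 members the GC box was present in 11 (34.4%), against 30.0% of the stretches of 21613 protein-coding genes and 40.1% of the 11648 among them with a mean count of at least 10. The E-box was present in 1 member, against 5.72% of all stretches. The cyclic AMP response element, found in 1.31% of all stretches, and the left part of RE1, found in 0.273%, were in no member's stretch. The median GC content was 53.8% for the members and 54.4% for the genes with a mean count of at least 10. These matches are descriptions of the letters in the window only.

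The libraries held 3202310 to 5501958 reads in genes, and no pair of libraries was close enough to be the same library counted again. Abi3 had 10 to 38 reads in each Abi3+/+ animal, and 0 to 2 in each Abi3-/- animal, of which 4 had none. Reads that fell outside genes were fewer in Abi3-/- libraries, with 49.8 to 62.5 per 100 reads in genes, than in Abi3+/+ libraries, with 59.3 to 68.8 (exact permutation test, two-sided, p = 0.00866). This measure was chosen because earlier results of these data showed it to differ by genotype, so its p is descriptive only. Abi3-/- replicate 4, at 62.5, was the only library of its genotype inside the Abi3+/+ range. Of the 6 neuron markers, 5 had estimates above 0, with a median log2 fold change of 0.12 beside 0.10 for the members. Stmn2 (0.30) and Nefl (0.21) had an unadjusted p under 0.05, at DESeq2 adjusted p-values of 0.0661 and 0.264. The part of neuron content in the members' values was not tested. The choroid plexus markers Ttr, Folr1 and Kl summed to 3486 normalized counts in Abi3+/+ replicate 4, to 1890 and 2296 in Abi3-/- replicates 1 and 5, and to 42.7 to 156 in the other 8 animals.

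None of the 32 genes passed an adjusted p of 0.05 between the genotypes in DESeq2, where 0.482% of the 17626 genes tested passed and 1.27% of the 6690 whose counts were high enough to receive an adjusted p. Those were 85 genes, 55 higher and 30 lower in Abi3-/- cortex, a split that turned to 17 and 37 with library-total scaling. An unadjusted p under 0.05 was found for 8 members, against 8.58% of all genes tested, and all 8 were higher in Abi3-/- cortex: Napb, Stx1a, Sv2b, Nsf, Syp, Syn1, Snap25 and Syt4. In this direction the share was 4.14% of all genes tested and 7.28% of the 6690 genes with an adjusted p. The members lower in Abi3-/- cortex at an unadjusted p under 0.05 numbered 0, against 4.44% of all genes. edgeR and limma also called 0 members, where they called 0.193% and 0.132% of their genes. They gave an unadjusted p under 0.05 to 8 and 10 members, all higher in Abi3-/- cortex, and to 9.71% and 9.60% of their genes. With library-total scaling 0 members passed and 5 had an unadjusted p under 0.05, where 0.306% and 8.28% of genes did.

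Single animals decided whether some members passed. Without Abi3+/+ replicate 2 there was 1 call (Sv2b), and without Abi3+/+ replicate 4 there were 3 (Stx1a, Napb and Nsf), where 0.468% and 0.609% of all genes passed. Without Abi3-/- replicate 3 there was 1 call (Napb), and without Abi3-/- replicate 4 there were 2 (Syp and Sv2b), where 0.487% and 0.680% passed. Without any other animal the count was 0. The genes that received an adjusted p numbered 1223 to 9032 across the fits without 1 animal, against 6690 with all animals. Without the 3 animals with high choroid plexus markers, 0 members passed and 6 had an unadjusted p under 0.05, all higher, where 0.130% and 6.11% of genes did. Sv2b and Syn1 were the pair that left this group, at unadjusted DESeq2 p-values of 0.0995 and 0.0645. Their log2 fold changes there were 0.36 (SE 0.216) and 0.25 (SE 0.136), beside 0.34 (SE 0.115) and 0.27 (SE 0.116) in all animals. In bulk tissue, fewer cells of a type and less RNA per cell cannot be told apart.

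The estimates were small and mostly on 1 side. The log2 fold change was above 0 in 25 of 32 members, against 49.5% of all genes and 56.0% of genes with an adjusted p. The median was 0.10, from -0.19 for Vamp1 to 0.34 for Sv2b, beside a median of -0.0033 over all genes tested and 0.025 over genes with an adjusted p. With TMM, upper-quartile and library-total scaling the members' median was 0.096, 0.095 and 0.067, and 24, 24 and 23 members were above 0. The 95% interval of the log2 fold change lay within 1.5-fold in either direction for 30 of the 32 members, the exceptions being Syn2 and Syn3.

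**Figure D1:**
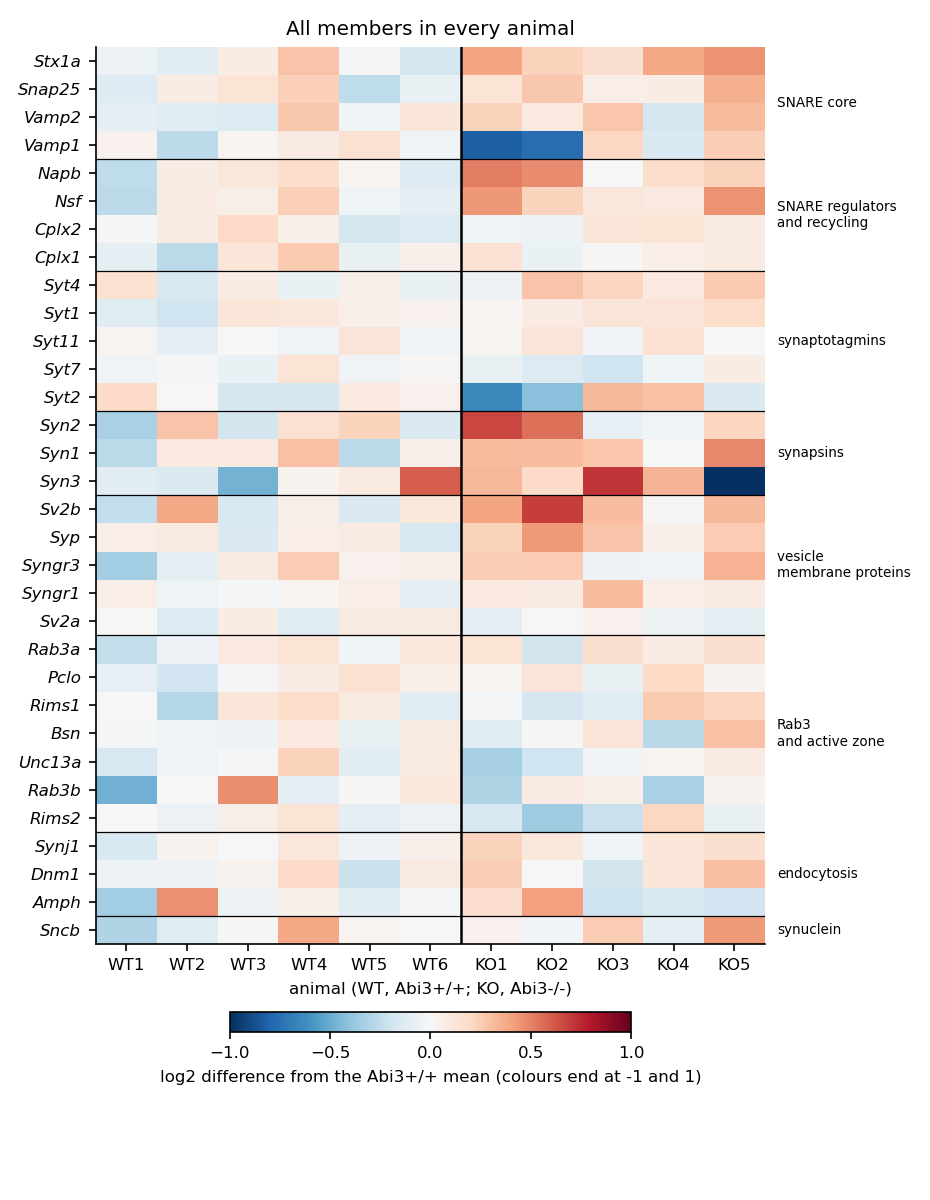
Log2 difference of the normalized count (plus 1) of each of the 32 members (rows, by role) from its Abi3+/+ mean, in each of the 11 animals (columns), with red for higher and blue for lower. Red cells prevail in the Abi3-/- columns for the SNARE, synapsin and vesicle membrane rows, while Vamp1 and Syt2 are blue in Abi3-/- replicates 1 and 2.

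The SNARE core was examined first. Stx1a (chr5:135052139-135079963), the syntaxin of the presynaptic membrane, had 249 to 342 normalized counts in Abi3+/+ animals, with a median of 273. In the Abi3-/- animals it had 369, 329, 314, 367 and 384 (replicates 1 to 5). Of the 5 Abi3-/- animals, 3 were above every Abi3+/+ animal, and replicates 2 and 3 overlapped with Abi3+/+ replicate 4, the highest of its group. The mean was 282 ± 33.6 (SD, n = 6) and 353 ± 29.5 (SD, n = 5), which is a log2 fold change of 0.32 (SE 0.106, DESeq2 adjusted p = 0.106). Without Abi3+/+ replicate 4 the DESeq2 adjusted p of Stx1a was 0.0172.

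Snap25 (chr2:136533580-136624362), the other SNARE of the target membrane, ranged from 2409 to 3397 normalized counts around a median of 2890.3 in Abi3+/+ cortex. Its Abi3-/- values were 3168, 3468, 3010.4, 3024 and 3684. The groups overlapped, although each Abi3-/- animal was above the Abi3+/+ mean. Its log2 fold change was 0.18 (SE 0.0833), with an unadjusted DESeq2 p of 0.0351 and an adjusted p of 0.367. Vamp2, the main synaptobrevin of forebrain terminals, had a log2 fold change of 0.15 with a 95% interval from -0.05 to 0.36.

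Vamp1 and Syt2 had estimates below 0, and both are given by animal here after their values had been seen. Vamp1, a synaptobrevin, and Syt2, a fast calcium sensor, are known from fast-spiking parvalbumin interneurons. Vamp1 had 100.4 to 134 normalized counts in Abi3+/+ cortex (median 123), and 68.2, 70.7, 139.7, 108 and 143 in Abi3-/- cortex. Syt2 had 148 to 191 (median 169), and 106, 124, 209, 204 and 150.2. For both genes Abi3-/- replicates 1 and 2 were below every Abi3+/+ animal while 2 other Abi3-/- animals were above every one. The coefficient of variation was 34.0% in Abi3-/- against 9.54% in Abi3+/+ animals for Vamp1, and 29.3% against 9.99% for Syt2, where counting error alone gives 8.69% and 7.40% in Abi3+/+ animals. The log2 fold changes were -0.19 (95% interval -0.58 to 0.19) and -0.08 (-0.41 to 0.25). With reads outside genes as a covariate the estimate for Syt2 was 0.36 (SE 0.290).

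Of the 3 parvalbumin interneuron markers, Pvalb was within the Abi3+/+ range in those animals, with 127 and 109 normalized counts in Abi3-/- replicates 1 and 2 against 56.9 to 141. Kcnc1, a potassium channel of the same cells, had 533 and 575 there and 586, 667 and 543 in replicates 3 to 5, against 597 to 735 (log2 fold change -0.22, DESeq2 adjusted p = 0.227). Kcns3 was at 0 in at least 1 animal of each genotype. The summed markers ran from 677 to 859 in Abi3+/+ and from 660 to 835 in Abi3-/- animals. Their part in the values of Vamp1 and Syt2 was not tested.

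Among the SNARE regulators, the recycling pair Napb and Nsf had the larger estimates and the complexins the smaller ones, a contrast that was not tested. Napb (chr2:148535905-148574444), the neuronal SNAP adaptor that brings NSF to spent SNARE complexes, had 1539.8 to 2075 normalized counts in Abi3+/+ animals (median 1891). In Abi3-/- animals it had 2619.7, 2545, 1833, 2074 and 2153. Replicates 1 and 2 stood well above all Abi3+/+ animals, and replicate 3 was below the Abi3+/+ mean. The mean went from 1843 ± 199.6 (SD, n = 6) to 2245 ± 331 (SD, n = 5), which is a log2 fold change of 0.28 (SE 0.0925). Its DESeq2 adjusted p of 0.10 was the lowest of the members. Napb passed without Abi3+/+ replicate 4 (DESeq2 adjusted p = 0.0375) and without Abi3-/- replicate 3 (0.0186).

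Nsf (chr11:103712592-103844936), the ATPase that separates the SNAREs, had 1029.6 to 1456 normalized counts in Abi3+/+ cortex around a median of 1242. The Abi3-/- values were 1660.1, 1438, 1336, 1321 and 1679.7, so that replicates 1 and 5 were above the Abi3+/+ range and the others within it. For Nsf the log2 fold change was 0.26 (SE 0.0895), and the DESeq2 adjusted p was 0.122, or 0.0232 without Abi3+/+ replicate 4. Nsf lies on chromosome 11, 7.98 Mb from Abi3, and Vamp2 lies on the same chromosome at 26.7 Mb. DNA of the strain in which the allele was made can stay linked to it, and its part in these values was not tested. Cplx1 and Cplx2, the complexins that clamp the SNARE complex, had log2 fold changes of 0.04 (95% interval -0.12 to 0.21) and 0.05 (-0.10 to 0.19).

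**Figure D2:**
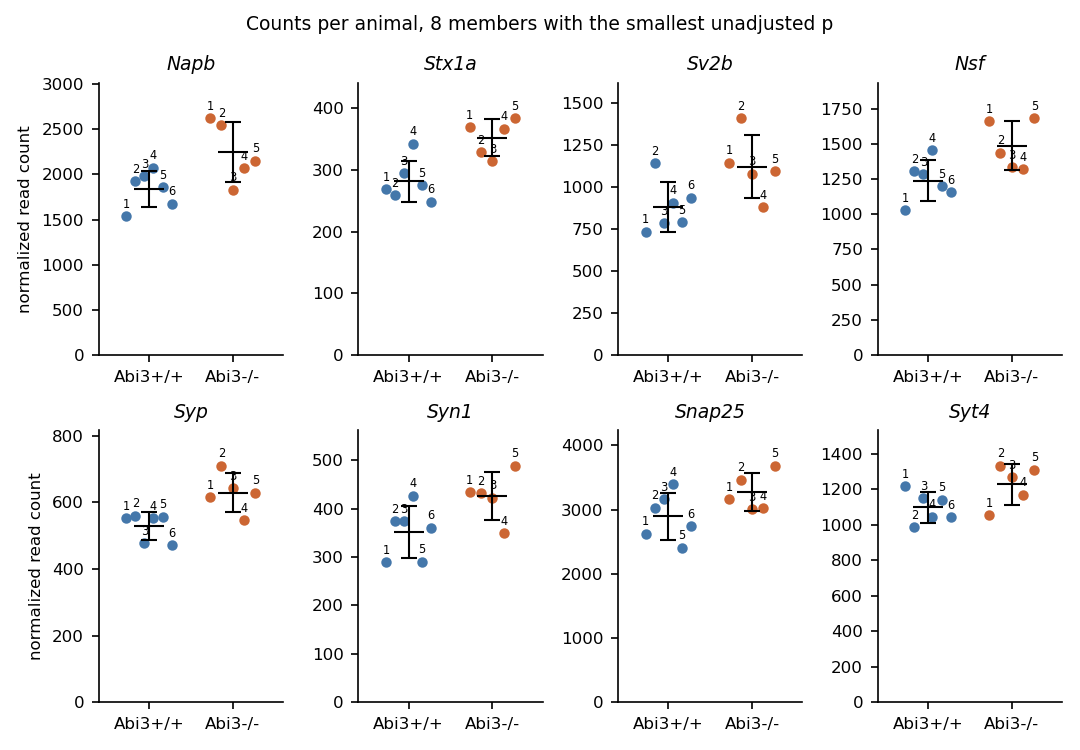
Normalized read counts per animal (vertical axes start at 0) of the 8 members with the smallest unadjusted p, for Abi3+/+ (blue, n = 6) and Abi3-/- (orange, n = 5) cortex. Numbers are replicates, and bars give the mean and SD. The Abi3-/- mean is higher in each panel and the genotypes overlap in each.

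Among the synaptotagmins, Syt1, the calcium sensor of fast release in most forebrain neurons, had the most reads. It ranged from 8752 to 10947 normalized counts in Abi3+/+ cortex (median 10390.2), and was 10182, 10658, 11009, 11007 and 11448 in Abi3-/- cortex. All 5 Abi3-/- animals were above the Abi3+/+ mean and 3 above the whole group, and the groups overlapped. The log2 fold change was 0.11 with a 95% interval from -0.02 to 0.23. At this depth the counting error of Syt1 was 0.952%, the smallest of the members.

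Syt4, a synaptotagmin of dense-core vesicles, had 985 to 1216 normalized counts in Abi3+/+ animals (median 1093) and 1052, 1331, 1268, 1169 and 1309.8 in Abi3-/- animals. Of these, 3 were above the Abi3+/+ range. For Syt4 the log2 fold change was 0.16 (SE 0.0775), with an unadjusted DESeq2 p of 0.0364 and an adjusted p of 0.371. Syt7, a slow high-affinity calcium sensor, and Syt11, which binds no calcium, had log2 fold changes of -0.07 (95% interval -0.21 to 0.06) and 0.06 (-0.05 to 0.16).

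The synapsins had estimates above 0 in 3 of 3 genes. Syn1 (chrX:20726750-20787397) had 289 to 427 normalized counts in Abi3+/+ cortex with a median of 367, and 434, 432, 423, 349 and 488 in Abi3-/- cortex. Replicates 3 and 4 were within the Abi3+/+ range, and replicates 1, 2 and 5 were above it. For Syn1 the log2 fold change was 0.27 (SE 0.116), with a DESeq2 adjusted p of 0.301. Syn2 had the most reads of the synapsins, with 1252 to 1904 normalized counts (median 1576) in Abi3+/+ animals and 2492, 2296, 1474, 1525 and 1814 in Abi3-/- animals. Replicates 1 and 2 of Abi3-/- were above all other animals and the remaining 3 were within the Abi3+/+ range. The log2 fold change of 0.28 had a 95% interval from -0.07 to 0.62. Syn3 had 5 to 22 reads per animal, too few for an adjusted p, and its interval ran from -0.63 to 0.96.

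Of the vesicle membrane proteins, Sv2b and Syp had the lowest unadjusted p. Sv2b (chr7:74761975-74959131), one of the SV2 transporter-like glycoproteins, had 734 to 1139.5 normalized counts in Abi3+/+ animals (median 848) and 1144, 1406, 1079, 879 and 1094 in Abi3-/- animals. Abi3+/+ replicate 2 was the highest of its group by a wide margin, and Abi3-/- replicate 4 was below the Abi3+/+ mean. At 0.34 (SE 0.115) its log2 fold change was the largest of the members, and its DESeq2 adjusted p was 0.109. That p was 0.00449 without Abi3+/+ replicate 2 and 0.0259 without Abi3-/- replicate 4.

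Syp (chrX:7504710-7519499) encodes synaptophysin, the protein most used to stain terminals. It had 472 to 560.1 normalized counts in Abi3+/+ animals, with a median of 553, and 617, 710.1, 642, 548 and 629 in Abi3-/- animals. Only replicate 4 of the Abi3-/- animals fell within the Abi3+/+ range. The mean was 529 ± 41.8 (SD, n = 6) and 629 ± 58.1 (SD, n = 5), which is a log2 fold change of 0.25 (SE 0.0862). Its DESeq2 adjusted p was 0.130, or 0.0478 without that animal. The last 300 bases of 1 of the 14 coding Syp transcripts matched transcripts of 30 other genes over 117 to 134 bases at 95% identity or more, so reads from that end could be lost or misplaced.

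Syngr1, a synaptogyrin, was the 1 member whose values did not overlap between the genotypes, as was the case for 1.04% of all genes tested. It had 452 to 504.818 normalized counts in Abi3+/+ animals and 517, 511, 602, 504.834 and 509.8 in Abi3-/- animals. The margin between the groups was under 1 count, and the log2 fold change was 0.13 (SE 0.0796, DESeq2 adjusted p = 0.531). Syngr3, its relative, had 0.15 (95% interval -0.09 to 0.40). Sv2a had the most reads of this role group and an estimate on the other side, with 2533 to 2958 normalized counts in Abi3+/+ cortex (median 2861) and 2605, 2788, 2861, 2680.0 and 2603 in Abi3-/- cortex. All Abi3-/- animals were within the Abi3+/+ range, and the log2 fold change was -0.04 (95% interval -0.16 to 0.08). The 3′ ends of 2 of 16 coding Sv2a transcripts matched transcripts of 110 other genes over 180 to 216 bases, which makes the count of Sv2a uncertain.

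**Figure D3:**
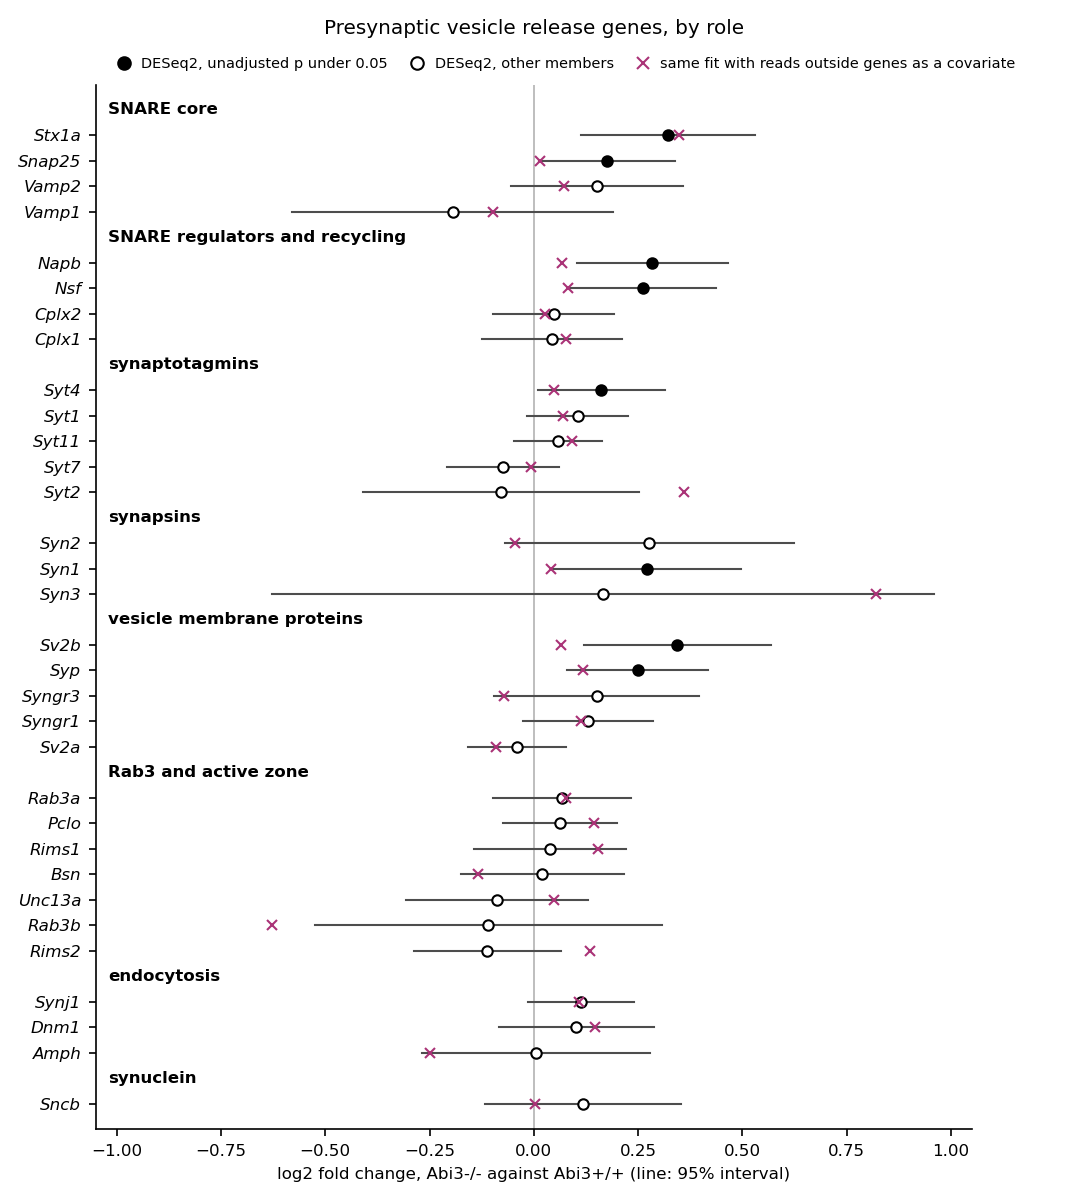
Log2 fold change of each member (Abi3-/- against Abi3+/+, DESeq2) with its 95% interval, by role, filled where the unadjusted p was under 0.05, with crosses for the fit that adds reads outside genes as a covariate. The 8 filled points are all above 0, none is in the Rab3 and active zone group, and 7 of their 8 crosses lie closer to 0 than the point.

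The Rab3 and active zone group had no member with an unadjusted p under 0.05. Pclo, the giant scaffold Piccolo, had the most reads of the 7, with 1778 to 2250.3 normalized counts in Abi3+/+ cortex (median 2057) and 2067, 2215, 1918, 2322 and 2080.2 in Abi3-/- cortex. Replicate 4 of Abi3-/- was above the Abi3+/+ range and the others were within it, and the log2 fold change of Pclo was 0.06 (95% interval -0.07 to 0.20). The other scaffold, Bsn, had 0.02, the vesicle GTPase Rab3a 0.07, and the Rab3 effectors Rims1 and Rims2 had 0.04 and -0.11. Unc13a, the priming factor Munc13-1, had -0.09, and Rab3b had -0.11 on 38 to 91 reads per animal, too few for an adjusted p. The median of the group was 0.02. It was 0.16 for the SNARE core, 0.15 for SNARE regulators and recycling, 0.06 for synaptotagmins, 0.27 for synapsins and 0.15 for vesicle membrane proteins. The endocytosis median was 0.10, and the 1 synuclein, Sncb, had 0.12. With library-total scaling the group's median was -0.016 and that of Bsn changed sign, while the medians of the other role groups stayed above 0. With reads outside genes as a covariate the Rab3 and active zone median was 0.08. The SNARE core and synapsins then had 0.04, and SNARE regulators and recycling, synaptotagmins and vesicle membrane proteins had 0.07. Endocytosis had 0.11 and Sncb 0.0029. The median SE of single members in that fit was 0.164. The difference between the role groups was not tested.

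The endocytic genes had estimates near 0.1 or below. Synj1, the lipid phosphatase that uncoats vesicles, had 1389 to 1669.8 normalized counts in Abi3+/+ animals (median 1572) and 1806, 1663, 1504, 1681 and 1732 in Abi3-/- animals. Of these, 3 were above the Abi3+/+ range and replicate 3 was below the Abi3+/+ mean, and the log2 fold change was 0.11 (95% interval -0.01 to 0.24). Dnm1, the neuronal dynamin, had 0.10 (-0.08 to 0.29), and Amph, which recruits dynamin, had 0.0044 (-0.27 to 0.28), a value that fell below 0 with each of the 3 other scalings. Sncb, the synuclein of the list, had 345 to 555 normalized counts in Abi3+/+ cortex (median 428) and 437, 418, 507, 399.8 and 571 in Abi3-/- cortex. The groups overlapped, with a log2 fold change of 0.12 (95% interval -0.12 to 0.35).

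The score of the 32 members, an average of their z-scores of log2(normalized count + 1), gave each animal 1 value. It was -0.770 to 0.448 in Abi3+/+ animals with a median of -0.232, and 0.154, 0.189, 0.163, 0.143 and 0.670 in Abi3-/- animals. Abi3+/+ replicate 4 scored higher than 4 of the 5 Abi3-/- animals, and the other 5 Abi3+/+ animals scored lower than all of them. The mean was -0.220 ± 0.415 (SD, n = 6) and 0.264 ± 0.228 (SD, n = 5), a difference of 0.484. The highest score in each genotype belonged to Abi3+/+ replicate 4 and Abi3-/- replicate 5, and both were among the 3 animals with high choroid plexus markers. Without these 3 animals the difference was 0.534. The part of these markers in the score was not tested. The members above their Abi3+/+ mean numbered 8 to 26 of 32 in Abi3+/+ and 19 to 27 in Abi3-/- animals. No p is given, because the list was chosen with earlier results of these data known.

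**Figure D4:**
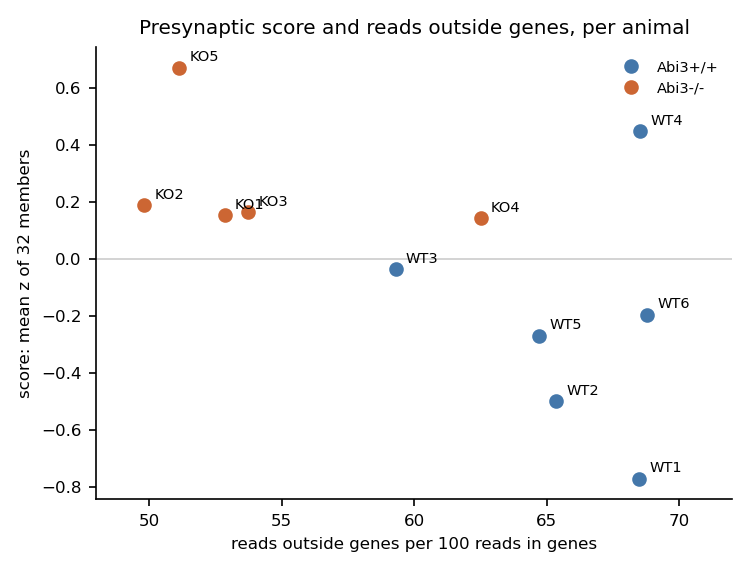
Presynaptic score (vertical axis, mean z of 32 members) against reads outside genes per 100 reads in genes (horizontal axis) for each animal, Abi3+/+ in blue and Abi3-/- in orange. The genotypes lie apart on the horizontal axis except for Abi3-/- replicate 4 at 62.5 and Abi3+/+ replicate 3 at 59.3, and Abi3+/+ replicate 4 is the only Abi3+/+ animal above 0 on the vertical axis.

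The library measure moved with many of these estimates. When reads outside genes were added to the DESeq2 model, 0 of the 32 members had an unadjusted p under 0.05 and 0 passed, where 3.69% and 0.0170% of all genes did. The log2 fold change of Snap25 was then 0.01, of Sv2b 0.07, of Napb 0.07, of Nsf 0.08, of Syn1 0.04, of Syp 0.12 and of Syt4 0.05, and that of Syn2 was -0.04. Stx1a was the exception, with 0.35 (SE 0.201) beside 0.32 without the covariate. The SE of the members had a median of 0.164 with the covariate and 0.0927 without it. Genotype and this measure cannot be told apart in these libraries.

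Other genes of the presynaptic terminal were read from a list of 89 that excluded the members. In DESeq2 0 of them passed the adjusted threshold, where 0.482% of all genes did, and 13 (14.6%) had an unadjusted p under 0.05, against 8.58% of all genes. Of these, 9 were higher and 4 lower in Abi3-/- cortex, where 4.14% and 4.44% of all genes were. With edgeR and limma 0 passed, and 13 and 12 had an unadjusted p under 0.05, against 9.71% and 9.60% of their genes. The estimate was above 0 in 51 of 89 (57.3%), against 49.5% of all genes and 56.0% of genes with an adjusted p, with a median of 0.05 that went to -0.06 with reads outside genes as a covariate and to -0.01 without the 3 animals with high choroid plexus markers.

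By role, the 12 SNAREs and chaperones had a median log2 fold change of 0.11, the 12 vesicle proteins and transporters 0.13, the 17 active zone and Rab3 genes 0.04 and the 23 endocytic genes 0.07. The 14 synaptotagmins and other calcium sensors had -0.0060. The genotypes did not overlap for 3 of the 89 genes, against 1.04% of all genes tested: Clta, a clathrin light chain, Snap47, a SNAP-25 relative, and Tmem163, a zinc transporter of vesicles. Clta and Snap47 had log2 fold changes of 0.23 (DESeq2 adjusted p = 0.0973) and 0.30 (0.109), and Tmem163 had 0.44 with too few reads for an adjusted p. The calcium channels (10 genes) had a median of -0.01 with 1 lower at an unadjusted p under 0.05, Cacna1a, at -0.17.

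**Figure D5:**
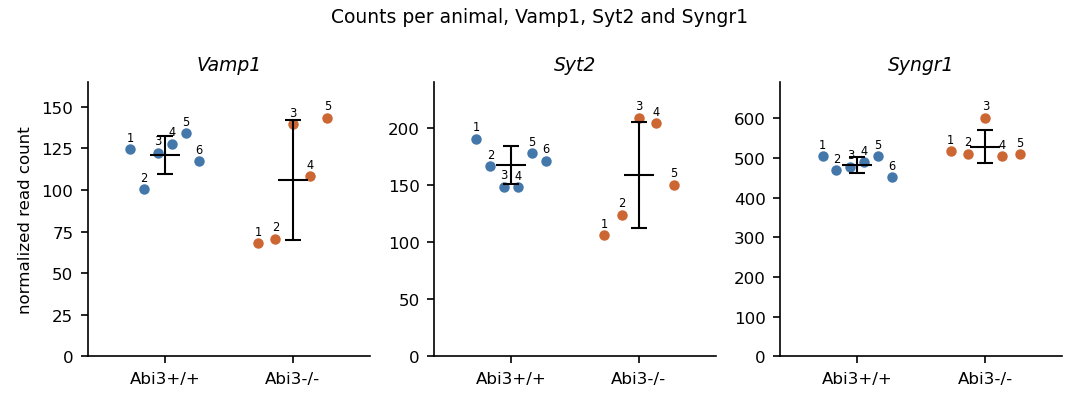
Normalized read counts per animal (vertical axes start at 0) of Vamp1, Syt2 and Syngr1 in Abi3+/+ (blue, n = 6) and Abi3-/- (orange, n = 5) cortex, with replicate numbers and bars for the mean and SD. Abi3-/- replicates 1 and 2 are the lowest animals for Vamp1 and Syt2, and the Syngr1 values of the genotypes nearly touch.

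Markers of cell types were compared beside the members, and 0 of their 46 genes passed in DESeq2, where 0.482% of all genes did. Of the 46, 3 had an unadjusted p under 0.05, against 8.58% of all genes: the neuron markers Stmn2 and Nefl, both higher in Abi3-/- cortex, and Kcnc1, lower. Neuron markers (6 genes) summed to 7859 to 8740.0 normalized counts in Abi3+/+ and 8525 to 9409 in Abi3-/- animals, and excitatory neuron markers (4 genes) to 6382 to 7023 and 6091 to 7499. Estimates were above 0 in 5 of 6 neuron markers and in 3 of 4 excitatory markers, with medians of 0.12 and 0.09. Inhibitory neuron markers (3 genes) summed to 1124 to 1303 and 802 to 1299, with estimates below 0 in 3 of 3. Microglia markers (6 genes) summed to 1338 to 1873 and 1433 to 1980, and oligodendrocyte markers (5 genes) to 7249 to 9988 and 7943 to 10916, with estimates above 0 in 5 of 6 and 5 of 5. None of these markers was at 0 in any animal. Astrocyte markers (5 genes) summed to 2282 to 3229 and 2392 to 2999.7, and endothelial markers (4 genes) to 446 to 701 and 588 to 662, with estimates above 0 in 1 of 5 and 2 of 4. Markers of neighbouring regions that a cortical dissection can include were those of striatum (4 genes), at 889.8 to 1362 and 925 to 1286, and of thalamus (3 genes), at 490.5 to 655 and 523 to 688. Estimates were above 0 in 0 of 4 and 1 of 3 of these. The part of cell composition in the members' values was not tested.

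The spread among animals differed between members. In Abi3+/+ animals the coefficient of variation ran from 4.33% for Syngr1 to 28.2% for Syn3, beside counting errors of 4.35% and 24.4% for the same genes. It was 17.0% for Syn2 and 19.4% for Amph, where counting error was 2.40% and 4.96%. The members lay on the X chromosome and on most autosomes, and their log2 fold change bore little relation to the span of the gene (Spearman's rho -0.12 over 32 genes, which share libraries, against 0.02 over 12874 genes with a mean count of at least 10). Of the 32 members, 9 overlapped another annotated gene on the same strand, among them Nsf, Syt1, Syn1 and Pclo, whose counts could include or lose reads in the shared stretch.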

How the data were processed

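QuantSeq libraries from the cortex of 11 animals were compared by genotype, Abi3-/- (n = 5) against Abi3+/+ (n = 6). The deposited values are raw read counts per Ensembl gene, which the authors made by trimming with bbduk, alignment to GRCm39 and stranded counting of uniquely aligned reads. Their processing notes name STAR 2.7.3a and HTSeq 0.9.1. PCR copies were not marked by molecular identifiers, so counting errors cover counting only, and 3 counts corresponded to 0.545 to 0.937 CPM. All 11 count columns were used, and 0 were left out.

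Counts were tested with DESeq2 1.42.0 (R 4.3.3) with a single genotype term, following the published methods. The fit took genes with at least 10 counts in total, the report took those whose mean normalized count reached 1.5, and the threshold was a Benjamini-Hochberg adjusted p of 0.05. Independent filtering left genes with a mean under 66.6 without an adjusted p, so the adjustment ran over 6690 of the 17626 reported genes. Normalized counts are counts divided by DESeq2 size factors. P-values set the difference between genotypes against the spread between these animals, which DESeq2 estimates with information from other genes.

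The members, the 89 other presynaptic genes, the 46 cell type markers and the measure of reads outside genes were chosen with earlier results of these data known. Some genes of the presynaptic list are not reported here. Members were given by animal if they passed the threshold, did not overlap between genotypes, were among the 10 named first by unadjusted p, or had the highest mean count of their role group. Vamp1, Syt2, Clta, Snap47, Tmem163, Stmn2, Nefl and Cacna1a were added after their values were seen. Alternatives were edgeR 4.0.16, limma 3.58.1 (voom with sample weights), other scalings and filters, reads outside genes as a covariate, 1 surrogate variable (sva 3.50.0), a replicate block, and each animal left out. The fit on the same 10 animals without a block, the minimum mean applied after adjustment, and the removal of 3 animals with over 1000 choroid plexus marker counts were chosen after seeing the data. The fits were also run on counts simulated from these data with known changes. Those changes were larger than any member's DESeq2 estimate, so the simulation does not cover changes of the members' size. Exact permutation tests used scipy 1.17.1.

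Names and positions came from GENCODE vM39, which matched 52610 of 53700 identifiers. Upstream sequences of 250 bases were read from GRCm39, and the last 300 bases of transcripts were compared with BLAST 2.17.0.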

Additional observations from a re-analysis of the deposited data

Results flagged for a closer look

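In 4 of 70 groups of animals examined, 1 animal stood apart from the rest of its genotype by Dixon's criterion at the 95% level. Chance gives about 1 in 20, or 3.5 of these groups. Among the Abi3-/- animals, replicate 3 had 602 normalized counts of Syngr1 where the next highest had 517, and replicate 2 had 781 of Rab3a where the next lowest had 931. The presynaptic score of Abi3-/- replicate 5 was 0.670, with the next highest at 0.189. Without that animal the difference in score between the genotypes was 0.399. Abi3-/- replicate 2 had 2.02 normalized counts of Abi3 where the other 4 had 0, an amount under the floor of 3 counts.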

How the results depend on the processing

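The count of members past the threshold stayed at 0 in every alternative except the replicate block, with 1 (Sv2b, DESeq2 adjusted p = 0.0282), and leaving out 1 animal, with 0 to 3. The adjustment ran over 2249 genes with the block, against 6690 in the main fit, and its part in the calls was not tested. The 89 other presynaptic genes had 0 calls in each alternative run. The 16 named genes were Abi3 and the members named by small unadjusted p, no overlap or highest count. Over their 416 estimates 1 changed sign, Syn2 at -0.044 with the covariate. Over all 32 members the covariate fit changed 7 signs, those of Syt2, Syn2, Syngr3, Rims2, Bsn, Unc13a and Amph. Limma and library-total scaling each changed 2, Bsn and Amph. The cause was not tested. The score difference was 0.281 to 0.534 under the other scalings, filters and sets of animals, 0.109 as log2 of summed counts, and 0.397 to 0.599 without 1 animal. That in reads outside genes was -14.0 to -10.8 without 1 animal.

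Replicate numbers did not pair the animals: same-numbered animals correlated at -0.0048 to 0.0656, with a mean of 0.0184 against -0.0037 for other pairs. The block moved the count over all genes from 85 to 35, beside 54 on the same 10 animals without it, and gave a score difference of 0.489. The genes with an adjusted p in these fits numbered 6690, 2249 and 1223. The count over all genes was 25 with edgeR, 17 with limma, 58 with independent filtering off, 54 with library totals, 3 with the covariate, 23 in the 8 animals, and 45 to 120 without 1 animal. It was 95 with the minimum mean applied after the adjustment. Depth limited Syn3, Rab3b and Abi3, which had too few reads for an adjusted p.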
